A study of Mus musculus with 2 samples.

Results

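RNA methylation genes were followed as a group of 52 named genes, chosen by symbol for their part in placing, reading or removing methyl groups on RNA. All 52 were found among the 25749 mouse genes of the deposited tables, and 50 of them reached 1 RPKM (reads per length of exon and per size of library) in at least 1 library. The messenger RNA came from a mouse embryonic stem cell line, E14.1, in 2 libraries: cells with T136A AHCY and cells with WT AHCY, 1 library each. T136A names a form of AHCY with alanine in place of a threonine. The E14.1 background is shared by both libraries. How the T136A cells were made, and whether they are 1 clone, is not given in the sources used here. With 1 library per genotype there was no replicate spread and no test, so every difference below compares these libraries only.

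RNA methyltransferases take their methyl group from S-adenosylmethionine and release S-adenosylhomocysteine, which inhibits many of them until AHCY hydrolyses it. On messenger RNA, N6-methyladenosine (m6A) is written by a nuclear complex around METTL3 and METTL14, bound by YTH-domain proteins and removed by the demethylases FTO and ALKBH5. In mouse embryonic stem cells this mark is known for limiting the lifetime of transcripts of pluripotency factors and so for helping cells leave the naive state. Other enzymes of the group methylate cytosine (m5C), the caps of messenger RNA and small nuclear RNA, transfer RNA, cytosolic and mitochondrial ribosomal RNA, and the ends of piRNAs.

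Most of these genes had similar levels in both libraries. Of the 50 genes at or above 1 RPKM, 44 (88%) lay within 1.5-fold, against 78.3% of all 12320 genes at that level, on the log2(RPKM + 1) scale, on which the other measures of difference were also taken. Only 1 was at least 1.5-fold higher in T136A (2%, against 10.4% of all genes) and 5 were at least 1.5-fold lower (10%, against 11.3% of all genes). At 2-fold, 0 genes of the group were higher, where 3.13% of all genes were, and 1 was lower, where 3.1% of all genes were. The median log2 ratio of the group was -0.03, as was that of all genes. The middle of the group, from percentile 16 to percentile 84, ran from -0.41 to 0.35, and that of all genes from -0.47 to 0.44. The 6 genes past 1.5-fold act on transfer RNA or ribosomal RNA: Mettl6 was higher, and Alkbh1, Mrm1, Mettl1, Mettl5 and Trmt1 were lower. Much of the group acts on such RNA: 19 of the 50 genes were classed under transfer RNA. A further 5 were classed under cytosolic and 4 under mitochondrial ribosomal RNA.

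**Figure D1:**
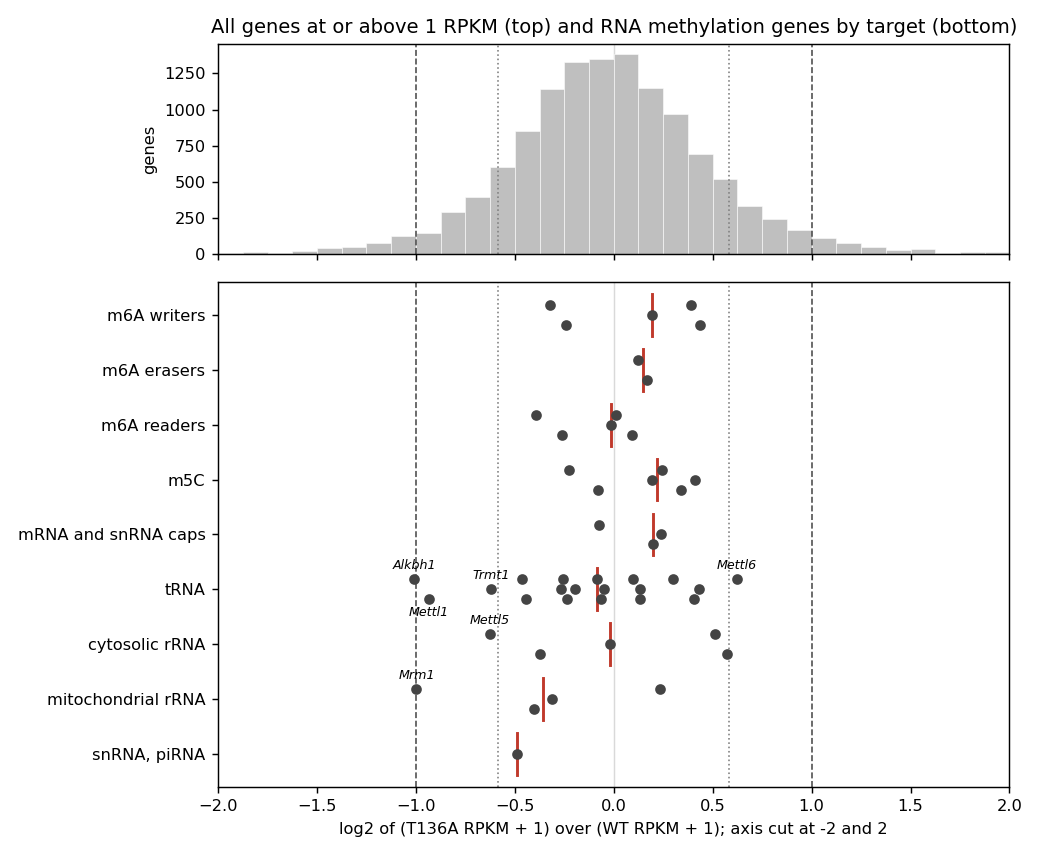
The upper panel counts all 12320 genes at or above 1 RPKM by their log2 ratio, and the lower panel shows each of the 50 RNA methylation genes as a point, grouped by target, with the group median as a red line. Dotted lines mark 1.5-fold and dashed lines 2-fold; the points past 1.5-fold are named, with 5 on the lower side and Mettl6 on the higher side.

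The starts of some genes past 1.5-fold are shown first, since such genes are where the group departs from equal levels. RefSeq promoter windows (GRCm38.p6, from 250 bases before to 50 after the start) were in the table used here for 42 of the 52 genes, with 50 windows in all. Windows of Alkbh1, Mrm1 and Mettl1, which had the lowest log2 ratios, and of Mettl6 are printed 5′ to 3′ on the gene's own strand, with any E-box in capitals. An E-box, CACGTG, is the sequence bound by MYC and related factors, and it reads the same on both strands.
Alkbh1, chr12:87443790-87444089, minus strand: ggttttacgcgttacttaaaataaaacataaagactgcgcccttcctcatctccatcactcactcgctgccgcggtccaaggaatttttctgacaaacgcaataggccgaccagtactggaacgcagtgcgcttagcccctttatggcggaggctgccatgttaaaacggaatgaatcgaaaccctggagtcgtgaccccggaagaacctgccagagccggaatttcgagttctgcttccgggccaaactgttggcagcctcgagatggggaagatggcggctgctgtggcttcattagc
Mrm1, chr11:84819466-84819765, minus strand: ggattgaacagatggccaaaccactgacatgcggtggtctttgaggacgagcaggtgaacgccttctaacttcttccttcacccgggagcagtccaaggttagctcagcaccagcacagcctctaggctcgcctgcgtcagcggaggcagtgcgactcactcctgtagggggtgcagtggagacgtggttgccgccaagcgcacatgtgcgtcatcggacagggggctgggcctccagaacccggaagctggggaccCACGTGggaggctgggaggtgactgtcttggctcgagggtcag
Mettl1, chr10:127041682-127041981, plus strand: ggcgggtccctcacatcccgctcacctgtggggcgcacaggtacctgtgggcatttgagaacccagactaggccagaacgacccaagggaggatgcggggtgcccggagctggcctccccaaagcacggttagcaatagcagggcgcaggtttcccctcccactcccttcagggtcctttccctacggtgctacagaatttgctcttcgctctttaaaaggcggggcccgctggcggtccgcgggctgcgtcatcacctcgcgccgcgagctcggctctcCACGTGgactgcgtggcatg
Mettl6, chr14:31494975-31495274, minus strand: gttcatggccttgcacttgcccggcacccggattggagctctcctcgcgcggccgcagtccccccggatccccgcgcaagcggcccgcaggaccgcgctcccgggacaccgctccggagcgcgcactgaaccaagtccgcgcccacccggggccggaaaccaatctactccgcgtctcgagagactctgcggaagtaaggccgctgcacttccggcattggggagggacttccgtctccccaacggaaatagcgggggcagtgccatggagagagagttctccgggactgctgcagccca
The E-box of Mrm1 began 8 bases after the start, and that of Mettl1 began 31 bases after it. The window of Mettl5 and a further window of Mettl6, not printed here, held no E-box. Trmt1 had no window in the table used. Windows of Trmt61a, Trmt10a and Ythdf1 also held one, which made 5 of 42 genes, and 8.09% of the 27025 genes in the table had an E-box in a window of this length. Trmt61a, Trmt10a and Ythdf1 had log2 ratios of -0.24, -0.06 and -0.01. The letters TGATGNAAN, an element bound by ATF4, were in 0 of the 42 genes' windows on either strand, and in those of 4.50% of all genes. Windows of the group had a median of 23 CpG dinucleotides and a GC content of 62.0%, against 7 and 52.7% over all windows. The shares and medians over all genes or windows take in genes below 1 RPKM, unlike the other comparisons here. Those of genes at or above 1 RPKM were not worked out, so these differences are not particular to RNA methylation genes on this evidence. The E-boxes and ATF4 elements are matches of letters, and binding was not measured.

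The largest difference on the log2(RPKM + 1) scale was that of Alkbh1 (ENSMUSG00000079036), a dioxygenase that acts on methylated bases of transfer RNA, in mitochondria among other places. It stood at 3.90 RPKM in T136A and 8.86 RPKM in WT, from 472 and 1020 reads. That is 2.27-fold lower in T136A, with a 95% counting interval of 2.03 to 2.54, and a log2 ratio of -1.01. The interval is exact for counting error and says nothing of the spread between cultures. The gene lies on chromosome 12 from 87425840 to 87444017 (GRCm38, GENCODE M21, minus strand), and 122 of its exon bases are shared with Slirp on the opposite strand. Slirp is listed at 0 in both libraries.

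Mrm1 (ENSMUSG00000018405), which adds a ribose methyl group to the large ribosomal RNA of mitochondria, stood at 9.21 RPKM in T136A and 19.4 RPKM in WT. It was 2.10-fold lower (1.88 to 2.35), and its log2 ratio of -0.997 lay just inside the 2-fold line. Mettl1 (ENSMUSG00000006732), the catalytic subunit that makes 7-methylguanosine in transfer RNA, had 10.4 RPKM in T136A and 20.8 RPKM in WT. This was 2.0-fold lower (1.80 to 2.22), with a log2 ratio of -0.93. Alkbh1, Mrm1 and Mettl1 therefore sat together at the lower end, apart from the remaining genes of the group, whose lowest ratio was -0.63.

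That next ratio belonged to Mettl5 (ENSMUSG00000051730), which methylates an adenosine of the small cytosolic ribosomal RNA. Mettl5 had 11.1 RPKM in T136A and 17.7 RPKM in WT, 1.59-fold lower (1.42 to 1.79). Its exons share 169 bases with Ssb on the opposite strand, and Ssb had 98.1 RPKM in T136A and 68.7 RPKM in WT. Trmt1, which methylates a guanosine between the D arm and the anticodon arm of transfer RNA, had 15.5 RPKM in T136A and 24.3 RPKM in WT, 1.57-fold lower (1.48 to 1.67). Mettl6 (ENSMUSG00000021891), which makes 3-methylcytidine in serine transfer RNAs, was the gene on the higher side. It had 27.6 RPKM in T136A and 17.6 RPKM in WT, 1.57-fold higher (1.46 to 1.69), with a log2 ratio of 0.62.

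**Figure D2:**
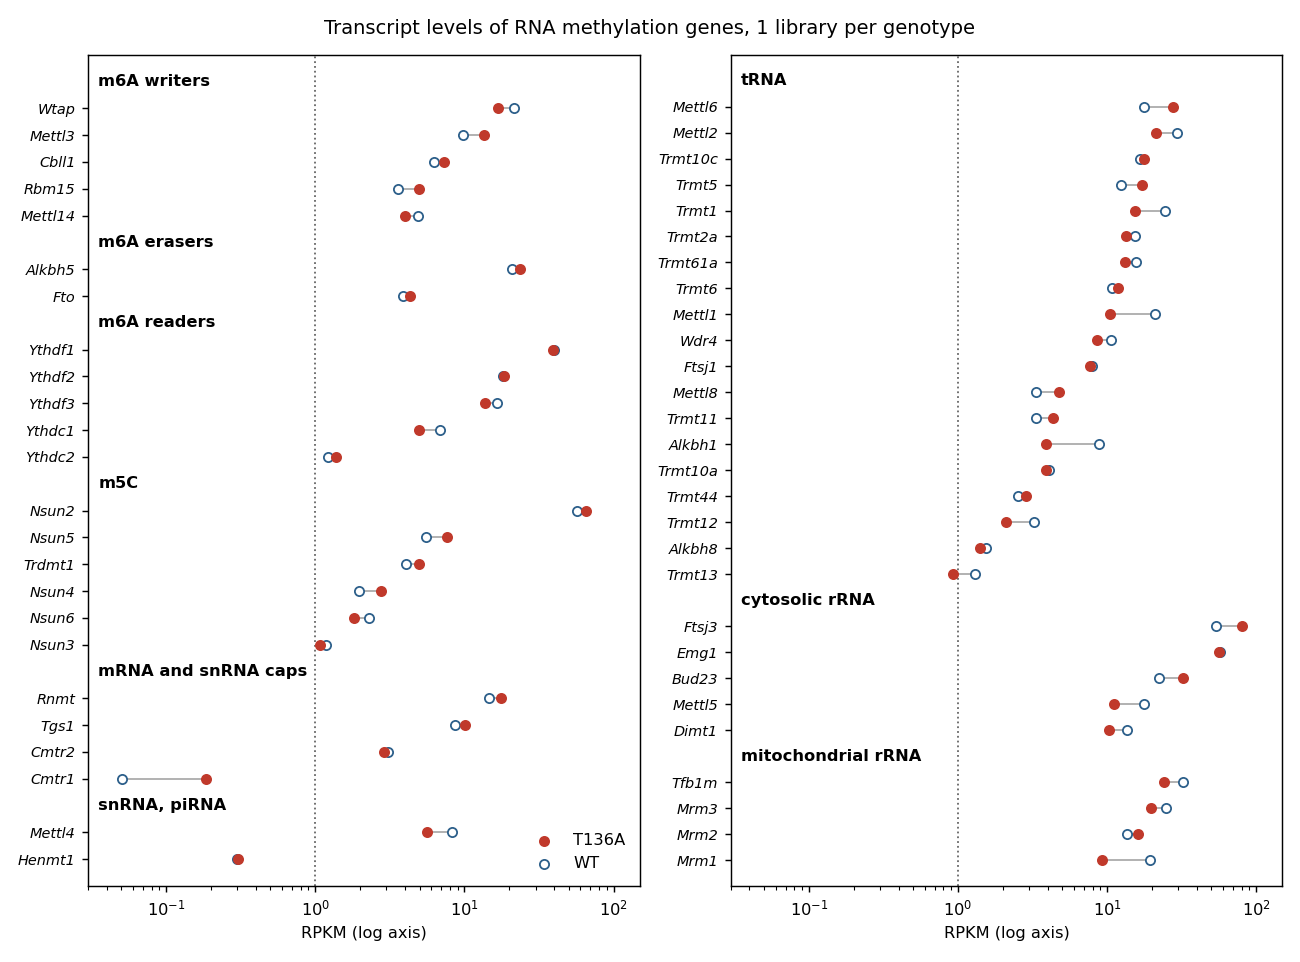
Each row is 1 of the 52 RNA methylation genes, with RPKM on a log axis in T136A (filled) and in WT (open), grouped by target and sorted by the T136A level; the dotted line marks 1 RPKM. Ftsj3, at 79.9 RPKM in T136A and 53.5 RPKM in WT, lies farthest right in T136A, and Cmtr1 and Henmt1 lie left of the line in both libraries.

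The 12 writers, erasers and readers of m6A in the group all lay within 1.5-fold, as did 78.3% of all genes. Of these 12, 7 had a log2 ratio above 0 and 5 below, with a median of 0.05 and a range from -0.39 to 0.43. Over all 12320 genes, 5841 were above 0 and 6479 below. Their summed level was 152 RPKM in T136A and 153 RPKM in WT.

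Within the writer complex the subunits went different ways. Mettl3 (ENSMUSG00000022160), the subunit that transfers the methyl group, stood at 13.5 RPKM in T136A and 9.73 RPKM in WT, 1.39-fold higher (1.27 to 1.51). Mettl14, its RNA-binding partner without catalytic activity, stood at 3.97 RPKM in T136A and 4.87 RPKM in WT, 1.23-fold lower (1.09 to 1.38). Wtap, the adaptor that holds the pair in nuclear speckles, had 16.9 RPKM in T136A and 21.3 RPKM in WT, 1.27-fold lower (1.19 to 1.35). Catalytic subunit and adaptor thus differed in opposite directions. Mettl3 lies on chromosome 14, where genes had a median log2 ratio of 0.32, and Wtap on chromosome 17, with a median of -0.10. Position and genotype cannot be told apart for Mettl3. Rbm15, which brings the complex to certain RNAs, had 4.98 RPKM in T136A and 3.56 RPKM in WT. Cbll1, also called HAKAI, had 7.31 RPKM in T136A and 6.26 RPKM in WT. For Mettl3, 933 of 5076 exon bases are shared with Tox4 on the opposite strand, and Tox4 had 20.4 RPKM in T136A and 17.8 RPKM in WT.

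Both erasers were slightly higher. Fto had 4.31 RPKM in T136A and 3.88 RPKM in WT, a fold of 1.11 (1.01 to 1.22). Alkbh5 had 23.5 RPKM in T136A and 20.8 RPKM in WT, a fold of 1.13 (1.07 to 1.20). Their log2 ratios of 0.12 and 0.17 lay well inside the middle range of all genes.

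Among the readers, the cytosolic proteins that bind m6A had nearly equal or slightly lower levels. Ythdf1 stood at 39.3 RPKM in T136A and 39.7 RPKM in WT. For Ythdf2 the values were 18.4 RPKM in T136A and 18.2 RPKM in WT, and the counting intervals of both folds (0.936 to 1.05 and 0.939 to 1.08) spanned 1. Ythdf3 had 13.7 RPKM in T136A and 16.6 RPKM in WT. The order Ythdf1, Ythdf2, Ythdf3 was the same in both libraries. Ythdc1, the nuclear reader that acts in splicing and export, was the lowest ratio of the readers, at 4.95 RPKM in T136A and 6.81 RPKM in WT, 1.37-fold lower (1.28 to 1.48). Ythdc2, a helicase known for its part in meiosis, was near the minimum level, with 1.37 RPKM in T136A and 1.22 RPKM in WT, a fold of 1.12 (0.921 to 1.37).

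Ratios between partners show these differences without the scaling of the libraries. The Mettl3 level was 3.40 times that of Mettl14 in T136A (95% counting interval 3.07 to 3.76) and 2.0 times in WT (1.80 to 2.21). Such a ratio does not remove the higher median of chromosome 14, where Mettl3 lies and Mettl14 does not. The Mettl1 level was 1.21 times that of Wdr4, the scaffold of the 7-methylguanosine enzyme, in T136A (1.08 to 1.35) and 1.97 times in WT (1.81 to 2.15). For the enzyme that makes 1-methyladenosine in transfer RNA, the ratio of Trmt6 to catalytic Trmt61a was 0.907 in T136A and 0.689 in WT. Its interval spanned 1 in T136A (0.821 to 1.003) and lay below 1 in WT (0.624 to 0.761). Alkbh5 over Fto was 5.44 in T136A (5.06 to 5.86) and 5.35 in WT (4.94 to 5.79). Ythdf1 over Ythdf2 was 2.14 in T136A (2.0 to 2.28) and 2.18 in WT (2.04 to 2.32). Set against Ythdf3, Ythdf1 was 2.87 times as high in T136A (2.68 to 3.07) and 2.38 times in WT (2.23 to 2.54). Ythdf2 over Ythdf3 was 1.34 in T136A (1.25 to 1.45) and 1.1 in WT (1.02 to 1.18). Trmt10c over Trmt10a, a pair of paralogues that methylate transfer RNA, was 4.59 in T136A (4.13 to 5.10) and 4.04 in WT (3.63 to 4.50). The intervals overlapped between libraries for the erasers, for Ythdf1 over Ythdf2 and for the Trmt10 paralogues. They did not overlap for Mettl3 and Mettl14, for Mettl1 and Wdr4, for Trmt6 and Trmt61a, or for either reader over Ythdf3. How often such intervals fail to overlap for other pairs of genes was not examined. The intervals cover counting error only, so an overlap or its absence does not compare the genotypes.

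**Figure D3:**
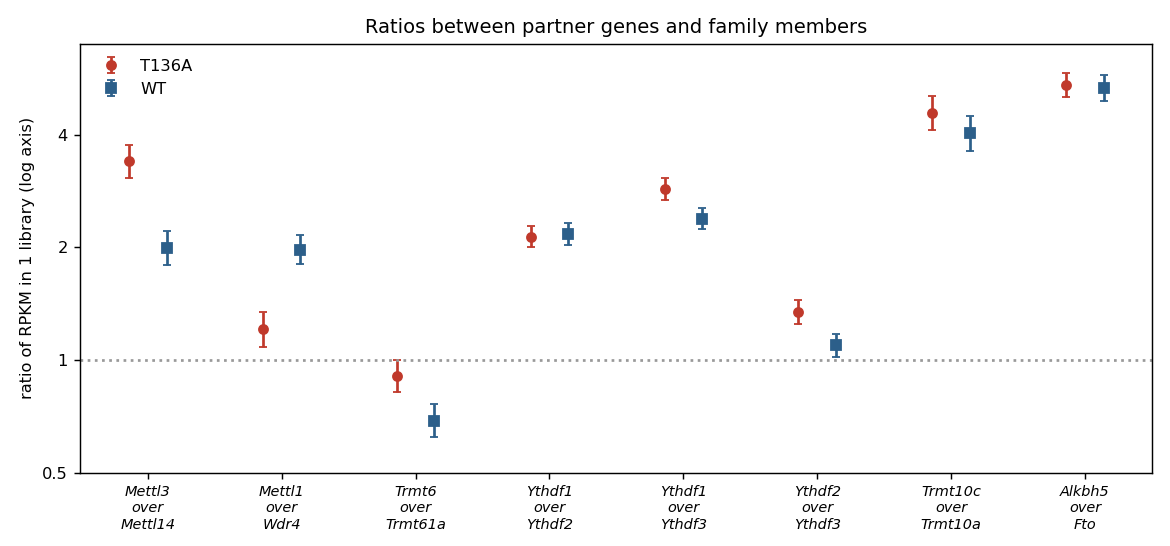
Each pair of points is the ratio of RPKM between 2 genes within the T136A library (circle) and within the WT library (square), on a log axis, with 95% counting intervals. Mettl3 over Mettl14 is higher in T136A (3.40 in T136A, 2.0 in WT) and Mettl1 over Wdr4 lower (1.21 in T136A, 1.97 in WT), while Alkbh5 over Fto is nearly equal.

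The 6 genes of m5C lay within 1.5-fold, as did 78.3% of all genes. Their median log2 ratio was 0.22, and 4 of 6 were above 0, as were 5841 of all 12320 genes. Nsun2, the main m5C methyltransferase of transfer RNA, was among the most abundant genes of the group, with 65.3 RPKM in T136A and 57.0 RPKM in WT. It was 1.15-fold higher (1.11 to 1.19). Nsun5, which acts on the large cytosolic ribosomal RNA, had the highest ratio of the class on the log2(RPKM + 1) scale, 0.41, at 7.63 RPKM in T136A and 5.49 RPKM in WT, 1.39-fold higher (1.22 to 1.58). Of its 4317 exon bases, 665 are shared with Pom121 on the opposite strand. Nsun6, an enzyme of a few transfer RNAs, had the lowest ratio, at 1.81 RPKM in T136A and 2.29 RPKM in WT, 1.26-fold lower (1.03 to 1.56). Trdmt1, or DNMT2, which methylates the anticodon loop, had 4.96 RPKM in T136A and 4.04 RPKM in WT. The mitochondrial members were low: Nsun4, of ribosomal RNA, had 2.74 RPKM in T136A and 1.95 RPKM in WT, with a log2 ratio of 0.34 and a plain fold of 1.40 (1.17 to 1.68). Nsun3, of methionine transfer RNA, had 1.07 RPKM in T136A and 1.19 RPKM in WT, and the interval of its fold (0.675 to 1.21) spanned 1.

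Among cap enzymes at or above 1 RPKM, Rnmt, which methylates the cap guanosine of messenger RNA, had the highest ratio, at 17.5 RPKM in T136A and 14.6 RPKM in WT, 1.19-fold higher (1.12 to 1.27). Tgs1, which hypermethylates the caps of small nuclear and nucleolar RNAs, had 10.1 RPKM in T136A and 8.69 RPKM in WT. Cmtr2, which methylates a ribose beside the cap, had 2.88 RPKM in T136A and 3.08 RPKM in WT, with an interval of the fold (0.772 to 1.13) that spanned 1. Cmtr1, the other ribose methyltransferase of the cap, did not reach the minimum, at 0.186 RPKM in T136A and 0.0507 RPKM in WT, from 27 and 7 reads. Its fold of 3.67 had an interval of 1.56 to 9.98. In GENCODE M21, 4584 of the 9720 exon bases of Cmtr1 are shared with Ccdc167 on the opposite strand and 3390 with Gm28043 on the same strand. Ccdc167 (0.278 RPKM in T136A and 0.373 RPKM in WT) and Gm28043 (0.133 RPKM in T136A and 0.149 RPKM in WT) were also near 0. How reads in such overlaps were counted is not given in the sources used here, so the Cmtr1 level is uncertain.

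The 19 genes of transfer RNA, the largest class, ranged most widely, with ratios from -1.01 to 0.62 and a median of -0.08. A larger class has more room for a wide range. Of these, 15 (78.9%) were within 1.5-fold, against 78.3% of all genes. Ratios were below 0 for 12 and above 0 for 7, against 6479 and 5841 of all 12320 genes. Besides Alkbh1, Mettl1 and Trmt1, the lower genes included Mettl2, which makes 3-methylcytidine, at 21.2 RPKM in T136A and 29.5 RPKM in WT. Trmt12, a step in wybutosine synthesis, had 2.10 RPKM in T136A and 3.22 RPKM in WT. Wdr4 had 8.62 RPKM in T136A and 10.5 RPKM in WT. As plain RPKM ratios, these genes were between 1.22-fold and 1.53-fold lower. Trmt61a had 13.1 RPKM in T136A and 15.6 RPKM in WT. Trmt2a, which methylates a uridine of the T loop, had 13.4 RPKM in T136A and 15.5 RPKM in WT. Trmt13, a ribose methyltransferase of the acceptor stem, was near the minimum, at 0.922 RPKM in T136A and 1.29 RPKM in WT.

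On the higher side of the log2(RPKM + 1) scale, after Mettl6, came Trmt5, which methylates the guanosine beside the anticodon. It had 17.0 RPKM in T136A and 12.4 RPKM in WT, 1.38-fold higher (1.22 to 1.55). Mettl8, the 3-methylcytidine enzyme of mitochondrial transfer RNAs, had 4.75 RPKM in T136A and 3.35 RPKM in WT. Trmt11, which methylates a guanosine of the D arm, had 4.32 RPKM in T136A and 3.33 RPKM in WT. The genes that make 3-methylcytidine, Mettl2, Mettl6 and Mettl8, thus did not share a direction. Trmt6 had 11.9 RPKM in T136A and 10.7 RPKM in WT.

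Genes with nearly equal levels included the paralogues that methylate the ninth base, Trmt10c of the mitochondrial RNase P (17.8 RPKM in T136A and 16.5 RPKM in WT) and Trmt10a of the nucleus and cytosol (3.87 RPKM in T136A and 4.09 RPKM in WT). Ftsj1, the ribose methyltransferase of the anticodon loop, had 7.63 RPKM in T136A and 7.92 RPKM in WT. Trmt44, a uridine ribose methyltransferase, had 2.88 RPKM in T136A and 2.54 RPKM in WT. Alkbh8, which methylates modified wobble uridines, had 1.41 RPKM in T136A and 1.55 RPKM in WT. For Trmt10a, Trmt10c, Ftsj1, Trmt44 and Alkbh8 the counting interval of the fold spanned 1.

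The 5 enzymes of cytosolic ribosomal RNA had a summed level of 190.4 RPKM in T136A and 165 RPKM in WT, and they split. Ftsj3, which acts on precursor ribosomal RNA, had 79.9 RPKM in T136A and 53.5 RPKM in WT, 1.49-fold higher (1.44 to 1.55), with a log2 ratio of 0.57. Bud23, which makes 7-methylguanosine in the small subunit RNA, had 32.3 RPKM in T136A and 22.4 RPKM in WT, 1.44-fold higher (1.35 to 1.55). Emg1, a pseudouridine methyltransferase, was level at 56.7 RPKM in T136A and 57.5 RPKM in WT. On the other side, besides Mettl5, stood Dimt1, which dimethylates adenosines of the small subunit RNA, at 10.3 RPKM in T136A and 13.7 RPKM in WT. The exons of Dimt1 share 1229 of 3851 bases with Kif2a on the opposite strand. Mettl5, which was lower, and Bud23, which was higher, are both known to act with the activator Trmt112, which had 43.7 RPKM in T136A and 39.6 RPKM in WT.

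Of the 4 genes of mitochondrial ribosomal RNA, 3 had a log2 ratio below 0, as did 6479 of all 12320 genes. The median of these 4 was -0.36. After Mrm1 came Tfb1m, which dimethylates the small subunit RNA, at 24.1 RPKM in T136A and 32.2 RPKM in WT. Mrm3 had 19.8 RPKM in T136A and 24.8 RPKM in WT. Mrm2 was above 0, at 16.2 RPKM in T136A and 13.6 RPKM in WT, 1.19-fold higher (1.03 to 1.37). The 3 Mrm genes methylate riboses of the same large subunit RNA. With Nsun3, Nsun4, Mettl8 and Trmt10c taken in, a grouping made after the values were seen, 4 of 8 were above 0 and the median was 0.01. Alkbh1, which acts in mitochondria among other places, was not among these 8, and its log2 ratio was -1.01.

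The last 2 genes act on small RNAs. Mettl4, which methylates a spliceosomal small nuclear RNA, had 5.59 RPKM in T136A and 8.24 RPKM in WT, 1.47-fold lower (1.30 to 1.67). Henmt1, which protects piRNAs of germ cells with a terminal ribose methyl group, did not reach the minimum, at 0.305 RPKM in T136A and 0.299 RPKM in WT, from 15 and 14 reads. The interval of its fold, 0.459 to 2.28, was wide. The 5 male germ cell markers examined had a summed level of 58.3 RPKM in T136A and 28.9 RPKM in WT, and Dazl carried the difference, at 33.3 RPKM in T136A and 1.24 RPKM in WT. The other 4 summed to 24.96 RPKM in T136A and 27.7 RPKM in WT. Of these, Piwil2 was higher (9.85 RPKM in T136A and 6.80 RPKM in WT). Piwil2 lies on chromosome 14, where genes had a median log2 ratio of 0.32. Mael (7.81 RPKM in T136A and 12.7 RPKM in WT) and Tdrd1 (0.499 RPKM in T136A and 0.924 RPKM in WT) were lower. Ddx4 had 6.80 RPKM in T136A and 7.20 RPKM in WT.

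Chromosome 14, on which genes had a median log2 ratio of 0.32 against -0.10 to 0.02 on the other autosomes and X, carried Mettl3 and Mettl6. Their log2 ratios were 0.43 and 0.62. Of the 48 other genes at or above 1 RPKM, 21 were above 0 and 27 below, with a median of -0.06, and 0 were at least 1.5-fold higher. Of all 11867 genes off chromosome 14, 9.83% were at least 1.5-fold higher, and the median was -0.04. Zc3h13, a further subunit of the m6A writer complex that lies on this chromosome, had 15.9 RPKM in T136A and 9.02 RPKM in WT, 1.77-fold higher (1.63 to 1.91). Hnrnpc, whose binding m6A can modulate, lies there as well and had a log2 ratio of 0.26. Gene position and genotype cannot be told apart for these genes.

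**Figure D4:**
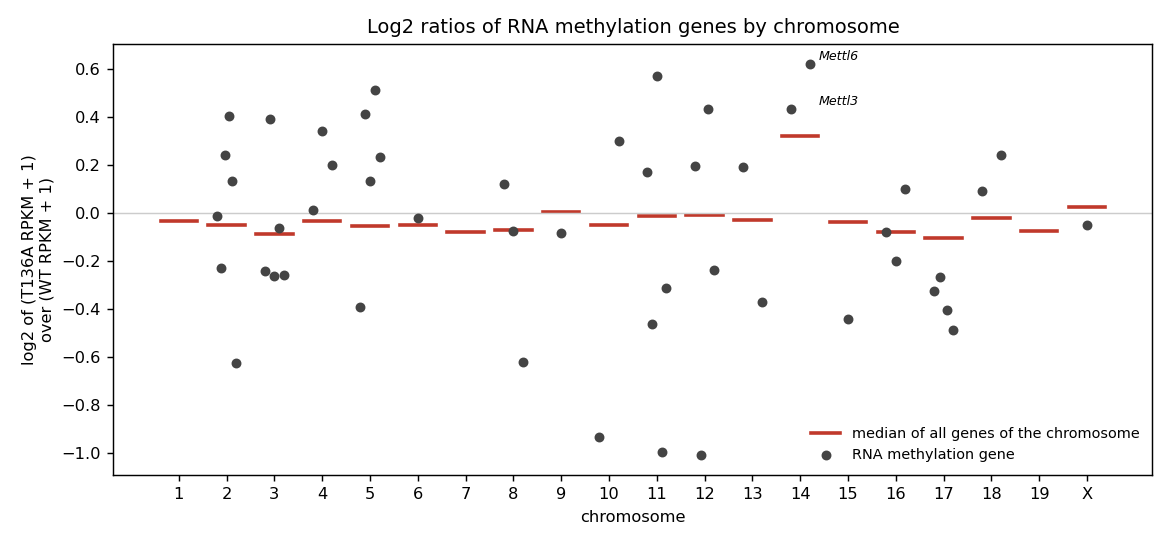
Points are the log2 ratios of the 50 RNA methylation genes by chromosome, and red lines are medians over all genes at or above 1 RPKM on that chromosome. The median of chromosome 14 is 0.32, where Mettl3 (0.43) and Mettl6 (0.62) lie.

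A list of 43 other genes of RNA methylation gave a similar picture. Of 42 at or above 1 RPKM, 1 was at least 1.5-fold higher (Zc3h13), where 10.4% of all genes were. At least 1.5-fold lower were 4 of the 42, where 11.3% of all genes were, and the median was 0.02. The lower genes included Nop56 (82.5 RPKM in T136A and 167 RPKM in WT, 2.02-fold lower) and Nop58 (40.1 RPKM in T136A and 64.7 RPKM in WT, 1.62-fold lower), scaffold proteins of the particles that guide ribose methylation. Fibrillarin, Fbl, the methyltransferase of the same particles, had a log2 ratio of -0.07. Bcdin3d, a methyltransferase of RNA ends, had 8.17 RPKM in T136A and 15.4 RPKM in WT, and Alkbh3, a demethylase of 1-methyladenosine, had 2.41 RPKM in T136A and 4.32 RPKM in WT. Virma, a scaffold subunit of the writer, had 10.7 RPKM in T136A and 7.91 RPKM in WT. On the supply side of S-adenosylmethionine, 7 genes were listed. Of these, 2 were at least 1.5-fold higher, where 10.4% of all genes were, and 0 were lower, where 11.3% were. The 2 higher genes were Mat2a, which makes S-adenosylmethionine (67.3 RPKM in T136A and 26.6 RPKM in WT), and Adk. Adk, on chromosome 14, had 14.5 RPKM in T136A and 6.79 RPKM in WT. Ahcy itself had 56.6 RPKM in T136A and 52.9 RPKM in WT. A gene-level value cannot show the altered codon, so it does not check the label.

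Levels within the group differed far more between genes than between libraries. In both libraries 24 genes stood at 10 RPKM or more and 16 stood under 5 RPKM. Nsun2, Ftsj3 and Emg1 were above 50 RPKM in both. In T136A, 31 of the 50 genes were in the upper 50% of all genes at that minimum, and in WT 32 were. Across the 50 genes, which are not replicates, levels in T136A and WT had a Spearman correlation of 0.934, against 0.944 over all 12320 genes. Mean level and log2 ratio had a Spearman correlation of 0.02.

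The totals that the authors divided by, worked out from the values, were 18396840 reads in T136A and 17506154 in WT. Behind the 50 genes stood between 95 and 6895 reads per library. The 95 are those of Nsun3, for which 2 exon lengths gave whole reads and the shorter was used. Markers of embryonic stem cells (Pou5f1, Sox2, Nanog, Esrrb, Zfp42) were between 112 and 517 RPKM in T136A and between 135 and 673 RPKM in WT. Markers of feeder fibroblasts, of which 5 of 8 were found, summed to 6.26 RPKM in T136A and 3.36 RPKM in WT, mostly from Thy1. Primitive endoderm markers summed to 5.12 RPKM in T136A and 2.67 RPKM in WT, and neuroectoderm markers to 3.47 RPKM in T136A and 8.94 RPKM in WT. The neuroectoderm difference came from Sox1, at 1.55 RPKM in T136A and 7.77 RPKM in WT, while Nes had 1.91 RPKM in T136A and 1.18 RPKM in WT and Pax6 is listed at 0 in both. The part of such cells in the ratios above was not tested, and fewer cells of a type cannot be told apart from less RNA per cell.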

How the data were processed

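RNA of 2 E14.1 libraries, T136A AHCY and WT AHCY, was extracted with Trizol and prepared with an Illumina TruSeq kit, per the labels' protocols. The submitters' processing notes name CASAVA 1.8 and mm9, with no role. An aligner, a counting program and a strand rule are not stated. The values deposited by the authors were read as RPKM, a unit settled from the values themselves: times the GENCODE M21 union exon length and a constant for each library, 90.0% of positive values in T136A and 89.9% in WT were whole within 0.01 reads.

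Symbols were found for 25696 of 25749 identifiers, keeping for each symbol the identifier with the highest sum. The measure was log2 of (T136A RPKM + 1) over (WT RPKM + 1), for genes at 1 RPKM or more in at least 1 library; it understates differences of low genes, and printed folds are plain RPKM ratios. With 1 library per genotype no test was run. Intervals of folds are exact conditional binomial (Clopper-Pearson) at 95%, for counting error only, on reads without molecular identifiers. GENCODE lengths gave whole reads for 42 of the 52 genes. For the other 10, intervals use a length between 0.4 and 1.6 times as long that gave whole reads in both libraries within 0.001. Where several lengths did (4 genes: Nsun3, Mettl6, Tfb1m and Mettl4), the shortest was used, so their read numbers are not settled. Steps were checked on simulated data, in Python 3.11.15 with NumPy 2.4.6, pandas 2.3.3 and SciPy 1.17.1.

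Members, lists and folds were chosen with earlier results of these data known. Any of the 52 genes could be named. Folds with intervals are given at least for genes past 1.5-fold and for the ends of each class. Of other RNA methylation genes, those past 1.5-fold and Trmt112, Virma and Fbl were named, with Ahcy and Mat2a for methyl supply. Hnrnpc, Adk and the neighbours that share exons were picked with their values in view. Alternatives were other added constants, minimum levels and scalings, leaving out chromosome 14, summing shared symbols, and keeping only genes with recovered reads.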

Additional observations from a re-analysis of the deposited data

How the results depend on the processing

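No paired analysis was possible because each genotype had 1 library. Of 108 summary values under 12 alternatives, 86 stayed within their limit (1.5 times for counts). The added constant moved the counts most. With 0.1 added, 723 of all genes were at least 2-fold higher and 727 lower, and 2 RNA methylation genes were at least 2-fold lower. With 5 added these were 101, 114 and 0, at 1.5-fold 523 of all genes were higher and 518 lower, and 0 RNA methylation genes were higher and 3 lower. With a minimum of 5 RPKM, 209 of 7603 genes were at least 2-fold higher, 780 at least 1.5-fold higher and 903 at least 1.5-fold lower. The main counts were 386, 1282 and 1388 of 12320 genes, so these counts differ partly because fewer genes were tested. The 1 RNA methylation gene at least 2-fold lower, Alkbh1, became 0 with the median of ratios, the upper quartile and quantile normalization, and 2 (with Mrm1) with equal sums. Genes of the group at least 1.5-fold higher were 2 with the median of ratios (Mettl6 and Ftsj3), 3 with the upper quartile (these and Bud23; 3 were lower), and 0 without chromosome 14 or with recovered whole reads only, which leave out Mettl6. The upper quartile shifted the median of all genes by 0.13 and that of the group by 0.14. The group's median ran from -0.06 to 0.11 over all alternatives. Under the scalings and added constants, 0 genes past 1.5-fold changed direction, while 9 others, all with log2 ratios near 0, changed sign. Alkbh1, Mrm1 and Mettl1 stayed past 1.5-fold lower in each of these, and Mettl6, Trmt1 or Mettl5 fell inside it with 5 added, or under the median of ratios (Trmt1), the upper quartile (Trmt1 and Mettl5) or quantile normalization (Mettl5). For Nsun3, Ythdc2 and Alkbh8, all between 1 and 2 RPKM, the counting interval spanned 1, so at this depth the libraries did not differ beyond counting error. Intervals of some genes at higher levels, such as Ythdf1 and Ythdf2, spanned 1 as well. A difference between genotypes was not tested for any gene.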

Other observations

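Whole reads came back from GENCODE M21 lengths for nearly all genes of some chromosomes and not of others. On chromosomes 1 to 13 and X, between 97.7% and 99.9% of positive values in T136A, and between 97.8% and 99.7% in WT, came out whole. On chromosomes 14 to 19 the shares were between 43.5% and 68.7% in T136A and between 41.4% and 70.4% in WT. Of the RNA methylation genes, 39 of 39 on the first set of chromosomes and 3 of 13 on the second came out whole with the GENCODE length. For the remaining 10, another exon length gave whole reads in both libraries. A length used for both libraries cancels in the plain RPKM fold. Levels in RPKM and ratios on the log2(RPKM + 1) scale rest on it.

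Exons of 23 of the 52 RNA methylation genes share bases with another gene, and in 10 of them the shared part is over 10% of the exon length of the gene. Slirp, which shares 122 bases with Alkbh1, is listed at 0 in both libraries.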
